A study of Mus musculus with 2 samples.

Results

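The genes described here are the fibroblast growth factor (FGF) receptors *Fgfr1*, *Fgfr2*, *Fgfr3*, *Fgfr4* and *Fgfrl1* and the ligands *Fgf1*, *Fgf2*, *Fgf7*, *Fgf10* and *Fgf18*. They were chosen by gene symbol, and all 10 were found among the 24421 genes of the deposited count table. Each cell type was sequenced as 1 RNA-Seq library. Chondrocytes were freed from newborn mouse rib cartilage with collagenase, and cells of up to 2 passages counted as primary. Fibroblasts were freed from newborn dorsal skin, also with collagenase, and neither the labels nor the methods give a strain, genotype, treatment, sorting step or number of animals. Fibroblasts served as the control in a study of how *Sox9*, the master transcription factor of cartilage, is switched on in chondrocytes.

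FGFs are secreted proteins that, with heparan sulfate, pair up receptor tyrosine kinases at the cell surface and start the RAS-MAPK chain inside the cell. In the growth plate, FGFR3 restrains chondrocyte proliferation and differentiation, and activating mutations of it cause achondroplasia, the most common form of dwarfism. FGFR1 is the main receptor of many mesenchymal cells. FGF7 and FGF10 are made by mesenchyme and signal to the epithelial isoform of FGFR2. FGF18 comes from tissue around cartilage and acts on the growth plate through FGFR3.

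The chondrocyte library held 18788599 counted reads, and the fibroblast library 17563724. They are given as counts per 1000000 (CPM) after TMM scaling, which corrects the library sizes for a few very abundant genes, and as reads per kilobase of exon on the same scale (RPKM) where different genes are compared. For folds, a count below 3 was replaced by a floor of 3. Each interval is a 95% interval for counting error only. With 1 library per cell type there is no replicate check, so that no p-value is given and a difference holds for these libraries only. All 6 chondrocyte marker genes (*Col2a1* and *Acan* among them) were over 2-fold higher in the chondrocyte library, and all 5 fibroblast markers (*Col1a1* and *Col3a1* among them) were over 2-fold higher in the dermal fibroblast library. Markers of other cell types were counted in both libraries as well. The 8 keratinocyte markers summed to 163 counts in chondrocytes against 4834 in dermal fibroblasts, and the 6 skeletal muscle markers to 20137 against 13606. In the same order of libraries, the marker sums were 864 and 1471 for macrophages, 222 and 705 for endothelium, 174 and 942 for melanocytes and 1562 and 792 for osteoblasts. In such bulk samples, fewer cells of a type and less RNA per cell cannot be told apart.

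Most FGF receptors were more abundant in chondrocytes, and the ligands *Fgf10* and *Fgf18* were more abundant in dermal fibroblasts. *Fgf7* was close to equal, and *Fgf1* and *Fgf2* had too few reads to give a direction. Of the 5 receptors, 4 were over 2-fold higher in chondrocytes (*Fgfr3*, *Fgfrl1*, *Fgfr4* and *Fgfr2*) and 0 were over 2-fold higher in dermal fibroblasts. Of the 5 ligands, 2 were over 2-fold higher in dermal fibroblasts (*Fgf10* and *Fgf18*) and 0 were over 2-fold higher in chondrocytes. Among all genes in the table, 7.73% passed the same fold towards chondrocytes and 10.1% towards dermal fibroblasts. These shares are also the background for the list counts given further on. Of the 7 receptors and ligands with at least 100 counts in a library, 4 were over 2-fold higher in chondrocytes and 1 was over 2-fold higher in dermal fibroblasts. The shares among all genes at that depth were 8.79% and 13.3%. Summed over the 5 receptors, the level was 1503 CPM in chondrocytes and 421 CPM in dermal fibroblasts, which is 3.57-fold higher in chondrocytes. The 5 ligands together reached 36.8 CPM and 56.9 CPM, which is 1.54-fold higher in dermal fibroblasts. Both sums lean on single genes. *Fgfr3* alone gave 779 CPM in chondrocytes and 2.93 CPM in dermal fibroblasts. *Fgf10* alone gave 7.81 CPM and 30.3 CPM, whereas *Fgf7*, at 25.3 CPM and 22.0 CPM, was slightly higher in chondrocytes.

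**Figure D1:**
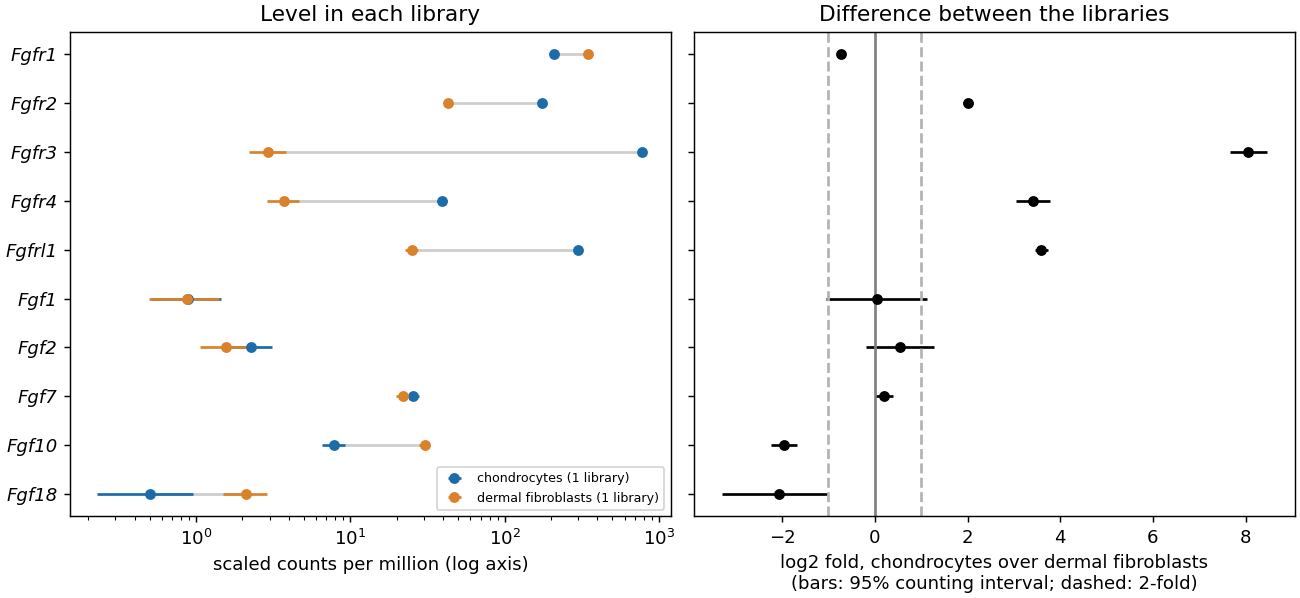
The left panel plots the level of each receptor and ligand in CPM (log axis) in the chondrocyte library (blue) and the dermal fibroblast library (orange), with 95% Poisson intervals, and the right panel plots the log2 fold of chondrocytes over dermal fibroblasts with its 95% counting interval. *Fgfr3* lies farthest to the right, at a log2 fold of 8.05, and *Fgf10* and *Fgf18* lie left of the 2-fold line.

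*Fgfr3* was the member with the largest difference. Its gene lies on chromosome 5 of GRCm38, at positions 33721724 to 33737068. Chondrocytes gave 13972 counts against 54 in dermal fibroblasts, or 779 CPM (interval 767 to 793) against 2.93 CPM (interval 2.203 to 3.827). The chondrocyte level was thus 266-fold higher, with an interval from 204 to 354. Of all genes with a count in either library, 99.8% had a smaller fold. The 3 genes nearest to *Fgfr3* by their CPM in both libraries were *Mgp*, which encodes an inhibitor of cartilage calcification (1043-fold, distance 1.63 on the log2 scale), *Col9a3*, a chain of the cartilage collagen IX (1847-fold, distance 2.02), and *Fry* (38.1-fold, distance 2.22). The 54 *Fgfr3* counts of the dermal fibroblast library stood beside 4834 keratinocyte marker counts and 42 chondrocyte marker counts, and the part of such cells in them was not tested.

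*Fgfrl1* encodes a receptor that binds FGFs but lacks the tyrosine kinase domain. It lies on chromosome 5 from 108694229 to 108706950. Its 5396 counts in chondrocytes (301 CPM) stood against 460 in dermal fibroblasts (24.99 CPM), a 12.05-fold difference (interval 10.95 to 13.28). *Fgfr4* (chromosome 13, 55152818 to 55168759), a receptor best known from liver and from developing muscle, had 702 counts (39.2 CPM) against 68 (3.69 CPM). It was 10.6-fold higher in chondrocytes, with an interval from 8.26 to 13.8 that overlaps the interval of *Fgfrl1*. Myogenic regulators were higher in the same library. *Pax7*, the marker of muscle satellite cells, had 120 counts against 4 and *Myod1* had 2328 against 496, while the contractile genes *Acta1* (6259 and 4705) and *Myh3* (7784 and 6497) were within 2-fold. Of the 6 muscle markers, 3 passed 2-fold towards chondrocytes and 0 towards dermal fibroblasts. The part of muscle cells in the reads of *Fgfr4* was not tested.

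*Fgfr2* (chromosome 7, 130162451 to 130266808) had 3123 counts against 796. At 174 CPM against 43.2 CPM, it was 4.03-fold higher in chondrocytes (interval 3.73 to 4.36). The counts do not separate its epithelial from its mesenchymal isoform. *Esrp1* and *Esrp2*, which encode the splicing factors that produce the epithelial isoform, had 1 and 12 counts in chondrocytes against 28 and 38 in dermal fibroblasts. In the dermal fibroblast library, the keratinocyte markers *Krt14* and *Krt5* had 1939 and 1693 counts. The part of epidermal cells in its *Fgfr2* reads was not tested.

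*Fgfr1* was the only receptor that was higher in dermal fibroblasts. Its gene lies on chromosome 8 from 25518759 to 25575718. At 3740 counts (209 CPM) against 6381 (347 CPM), it was 1.66-fold higher in dermal fibroblasts, with an interval from 1.60 to 1.73. The difference exceeded counting error and did not reach 2-fold. The span of *Fgfr1* shares 7411 bp with the long noncoding RNA gene *Gm16159*, which had 2 counts against 0, and 26088 bp with *Gm31288*, for which no counts were used here. No RefSeq gene overlapped the spans of *Fgfr2*, *Fgfr3*, *Fgfr4* and *Fgfrl1*.

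For the 4 receptors that were higher in chondrocytes, the 250 bases upstream of the annotated start (RefSeq, GRCm38.p6) are shown, so that their letters can be compared, each 5′ to 3′ on the strand of the gene. Where RefSeq gives several starts, as for *Fgfr3*, the most upstream one was taken. Capitals mark the GC box GGGCGG on either strand, a letter pattern that Sp1-type factors are known to bind. The windows are chr5:33721474-33721723 (plus strand) for *Fgfr3*, chr5:108693979-108694228 (plus strand) for *Fgfrl1*, chr13:55152568-55152817 (plus strand) for *Fgfr4* and chr7:130266809-130267058 (minus strand) for *Fgfr2*.
Fgfr3: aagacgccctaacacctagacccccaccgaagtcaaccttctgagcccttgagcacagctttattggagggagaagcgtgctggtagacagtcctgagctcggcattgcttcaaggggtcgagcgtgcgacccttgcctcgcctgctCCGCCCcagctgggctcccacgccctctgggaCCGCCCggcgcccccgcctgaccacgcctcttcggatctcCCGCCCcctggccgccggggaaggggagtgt
Fgfrl1: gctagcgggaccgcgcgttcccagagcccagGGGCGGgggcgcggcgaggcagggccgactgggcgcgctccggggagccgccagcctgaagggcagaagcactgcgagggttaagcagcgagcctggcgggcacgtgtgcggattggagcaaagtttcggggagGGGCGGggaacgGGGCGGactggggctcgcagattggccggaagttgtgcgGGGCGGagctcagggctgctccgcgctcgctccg
Fgfr4: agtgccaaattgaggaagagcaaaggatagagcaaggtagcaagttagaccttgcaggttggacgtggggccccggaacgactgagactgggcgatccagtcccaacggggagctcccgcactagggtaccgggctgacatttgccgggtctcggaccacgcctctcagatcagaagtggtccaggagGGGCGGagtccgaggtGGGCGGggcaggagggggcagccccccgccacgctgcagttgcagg
Fgfr2: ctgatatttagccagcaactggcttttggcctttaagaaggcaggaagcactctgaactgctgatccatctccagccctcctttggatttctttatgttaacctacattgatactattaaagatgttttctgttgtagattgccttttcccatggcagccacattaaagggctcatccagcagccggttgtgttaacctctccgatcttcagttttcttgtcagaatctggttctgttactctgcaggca

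The GC box occurred 3 times in the *Fgfr3* window, 4 times in the *Fgfrl1* window and 2 times in the *Fgfr4* window. In the *Fgfr2* window it occurred 0 times. Of 32851 windows of the same length in the table, 32.7% held it. The GC content was 66.8% for *Fgfr3*, 73.6% for *Fgfrl1*, 64.0% for *Fgfr4* and 44.0% for *Fgfr2*, against a median of 52.4% over all windows. The window of a further *Fgfr3* start (chr5:33722056-33722305), which is not shown, held 2 GC boxes at a GC content of 72.8%. In the ligand windows the GC content was 77.2% for *Fgf18*, 62.4% for *Fgf2*, 61.2% for *Fgf10* and 43.6% for *Fgf7*, with 1 GC box in each of the first 3 and 0 in the last. The *Fgf2* window (chr3:37348403-37348652) is only partly upstream of the gene span, which starts at 37348477. Its GC box lies within that span. The TATA box TATAAA (12.4% of all windows) and the SOX core motifs ACAAAG (16.5%) and ACAATG (10.7%), searched on both strands, were in none of the 4 receptor windows shown.

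Per length, the make-up of the kinase receptors differed between the cell types. In chondrocytes *Fgfr3* stood at 113 RPKM (interval 111 to 115), followed by *Fgfr1* at 25.9 RPKM (interval 25.1 to 26.7), *Fgfr2* at 22.3 RPKM (interval 21.6 to 23.1) and *Fgfr4* at 11.02 RPKM (interval 10.22 to 11.87). With these exon lengths, no neighbours in this order overlapped in their counting intervals. With the length of the longest transcript, *Fgfr1* at 41.8 RPKM and *Fgfr2* at 39.3 RPKM did overlap. *Fgfr3* made up 65.7% of the summed RPKM of the 4 kinase receptors, and of their 21537 reads 64.9% (exact binomial interval 64.2% to 65.5%). In dermal fibroblasts the order was *Fgfr1* at 43.0 RPKM, *Fgfr2* at 5.55 RPKM, *Fgfr4* at 1.04 RPKM (interval 0.807 to 1.32) and *Fgfr3* at 0.426 RPKM (interval 0.320 to 0.556). There *Fgfr1* made up 86.0% of the summed RPKM, and *Fgfr3* made up 0.853%. Of the 7299 kinase receptor reads in dermal fibroblasts, 87.4% were from *Fgfr1* (interval 86.6% to 88.2%) and 0.740% from *Fgfr3* (interval 0.556% to 0.964%). The RPKM of *Fgfr3* was 4.38 times that of *Fgfr1* in chondrocytes, whereas the RPKM of *Fgfr1* was 100.9 times that of *Fgfr3* in dermal fibroblasts. The kinase-less *Fgfrl1* reached 113 RPKM in chondrocytes (interval 110 to 116), which is not distinguishable from *Fgfr3* with these exon lengths, and 9.41 RPKM in dermal fibroblasts. With the length of the longest transcript in place of all exons, *Fgfr3* was at 185 RPKM and *Fgfrl1* still at 113 RPKM.

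**Figure D2:**
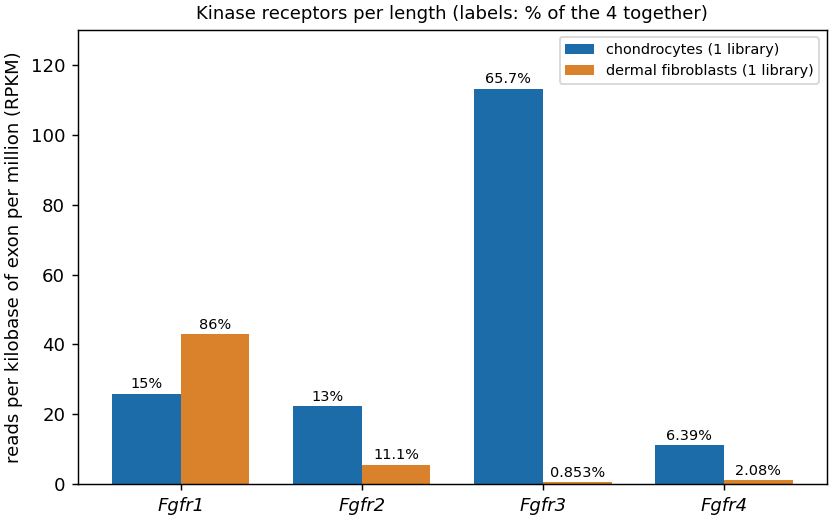
The bars give the RPKM of each kinase receptor in the chondrocyte library (blue) and the dermal fibroblast library (orange), and the labels give its percentage of the summed RPKM of the 4 in that library. *Fgfr3* holds 65.7% of the sum in chondrocytes, and *Fgfr1* holds 86.0% in dermal fibroblasts.

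Among 54 receptor tyrosine kinases ranked by RPKM, *Fgfr3* was at rank 1 in chondrocytes and at rank 40 in dermal fibroblasts. *Fgfr1* was at rank 8 and rank 7, *Fgfr2* at 9 and 18, and *Fgfr4* at 16 and 34. The 4 FGF receptors together made up 31.8% of the summed RPKM of these kinases in chondrocytes and 6.45% in dermal fibroblasts. Of the 50 other receptor tyrosine kinases, 5 passed 2-fold towards chondrocytes and 16 towards dermal fibroblasts, with a median log2 fold of -0.52 over the 46 with a count. By size of the fold in chondrocytes, *Fgfr3*, *Epha2* and *Fgfr4* held the first ranks. The ephrin receptor gene *Epha2* (1859 and 144 counts) had a log2 fold of 3.73, between *Fgfr3* (8.05) and *Fgfr4* (3.41). *Musk*, the receptor kinase of the neuromuscular junction (184 and 51 counts, log2 fold 1.89), and *Mertk* (441 and 125 counts, log2 fold 1.86) came after *Fgfr2* (2.01). Among the kinases with at least 100 counts in a library, those at the other end were *Tek* (-2.95), the PDGF receptor gene *Pdgfrb* (-2.35) and *Ephb6* (-2.34), and *Pdgfrb* was at rank 1 in dermal fibroblasts at 193 RPKM.

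**Figure D3:**
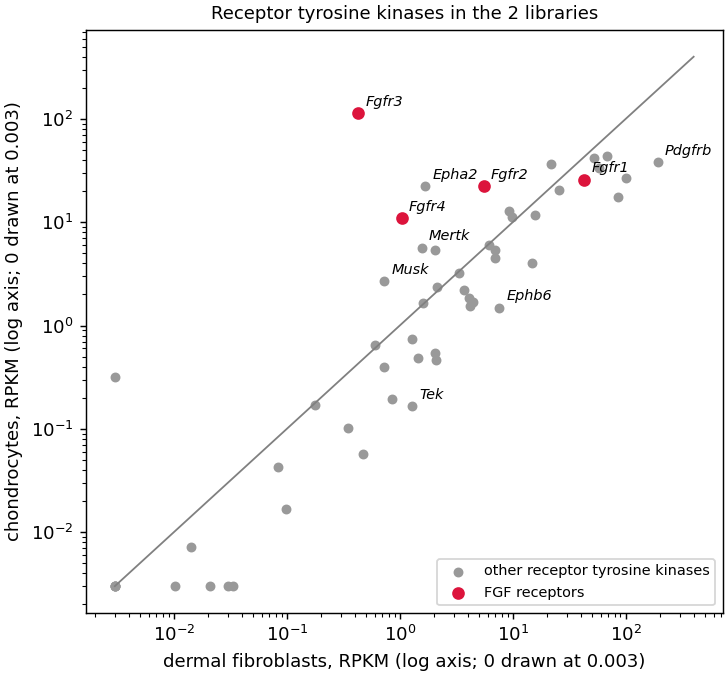
Each point is 1 of 54 receptor tyrosine kinases, with its RPKM in dermal fibroblasts on the x axis and in chondrocytes on the y axis (both log axes), the 4 FGF receptors in red and the line of equal levels in grey. *Fgfr3* lies highest on the y axis, at 113 RPKM, and far above the line, while *Fgfr1* lies below it.

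Per length, the highest of the 5 ligands, *Fgf7*, reached 7.80 RPKM in chondrocytes and 6.77 RPKM in dermal fibroblasts, against 113 and 43.0 RPKM for the highest receptor. Of each pair of values, that of the chondrocytes comes first. *Fgf10* (chromosome 13, 118714699 to 118792573), a mesenchymal factor needed for limb, lung and skin appendage growth, had 140 counts (7.81 CPM, interval 6.57 to 9.22) against 558 (30.3 CPM, interval 27.8 to 32.9). It was 3.88-fold higher in dermal fibroblasts, with an interval from 3.22 to 4.70. *Fgf18* (chromosome 11, 33116970 to 33147400) had few reads, with 9 counts (0.502 CPM) against 39 (2.12 CPM). The difference of 4.22-fold towards dermal fibroblasts had a wide interval, from 2.01 to 9.91.

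*Fgf7* (chromosome 2, 126034658 to 126091185), the keratinocyte growth factor, was close to equal in both cell types. It had 454 counts (25.3 CPM) against 405 (22.0 CPM), and the fold of 1.15 had an interval from 1.005 to 1.320. *Fam227b*, within whose span *Fgf7* lies, had 0 counts in both libraries. *Fgf2* (chromosome 3, 37348477 to 37410106), a broad mitogen, had 41 counts against 29, with a fold of 1.45 and an interval from 0.881 to 2.42 that includes equality. The span of *Fgf2* shares 5125 bp with that of *Nudt6* (114 and 79 counts), and reads of overlapping genes cannot be told apart where the counting is not stated to use the strand. *Fgf1* (chromosome 18, 38838672 to 38929470), which binds all FGF receptors, had 16 counts in each library. Its fold of 1.03 changed direction with the scaling, and its interval, from 0.481 to 2.19, includes both equality and 2-fold. Its whole span of 90799 bp lies within *Arhgap26* (52 and 56 counts).

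Per length, *Fgf7* was the highest of the 5 ligands in chondrocytes at 7.80 RPKM, 4.59 times the RPKM of *Fgf10* (1.70 RPKM). *Fgf2* followed at 1.27 RPKM, with an interval (0.911 to 1.72) that overlaps that of *Fgf10* (1.428 to 2.003). *Fgf18* at 0.423 RPKM and *Fgf1* at 0.192 RPKM had overlapping intervals as well. In dermal fibroblasts *Fgf7* at 6.77 RPKM (interval 6.13 to 7.47) and *Fgf10* at 6.59 RPKM (interval 6.05 to 7.16) were not distinguishable. There *Fgf18* was at 1.78 RPKM, *Fgf2* at 0.874 RPKM and *Fgf1* at 0.187 RPKM.

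The rest of the FGF family comprised 17 genes, of which 5 had 0 counts in both libraries. *Fgf21*, a metabolic hormone of the endocrine FGF branch, was the only one over 2-fold higher in chondrocytes, at 218 counts against 78 (2.87-fold, interval 2.21 to 3.77). Per length, *Fgf21* stood at 13.1 RPKM in chondrocytes, above *Fgf7* (7.80 RPKM), and at 4.56 RPKM in dermal fibroblasts, below *Fgf7* (6.77 RPKM). In the other direction were 5 genes. Of these, *Fgf12* (2 and 7 counts), *Fgf14* (5 and 12) and *Fgf16* (1 and 14) had few reads, and the intervals of *Fgf12* and *Fgf14* include equality. *Fgf5*, the factor that ends hair growth, had 19 counts against 267 and was 13.7-fold higher in dermal fibroblasts, with an interval from 8.59 to 23.1. *Fgf13*, an intracellular family member that does not act through the receptors, had 56 and 147 counts (2.56-fold higher in dermal fibroblasts). *Fgf11* had 50 and 66 counts, within counting error of each other. *Fgf9*, a growth plate ligand of FGFR3, had 6 counts in each library. The hormone gene *Fgf23* had 0 counts against 6. The median log2 fold of the 12 genes with a count was -0.66, against 0.04 over the 17718 genes of the table with a count. Both medians depend on genes with few reads. The first lies between *Fgf11* (-0.36) and *Fgf23* (-0.96, at the floor in chondrocytes). The second is also the value of genes at the floor in both libraries, such as *Fgf8* and *Fgf17*.

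Coreceptors and binding proteins were split. *Hspg2*, which encodes the heparan sulfate proteoglycan perlecan that presents FGFs in cartilage, had 49320 counts against 23490, which is 2.16-fold higher in chondrocytes (interval 2.12 to 2.19). With scaling by total counts, *Hspg2* did not reach 2-fold. *Flrt1*, whose product binds FGF receptors, was 4.88-fold higher in chondrocytes with 57 counts against 12. The related *Flrt3* (39 and 334 counts) and *Flrt2* (638 and 2146 counts) were 8.34-fold and 3.27-fold higher in dermal fibroblasts. The coreceptor gene of FGF21, *Klb*, had 6 and 41 counts (6.65-fold higher in dermal fibroblasts), and that of FGF23, *Kl*, had 0 in both. *Fgfbp1*, which encodes a carrier that releases FGFs from matrix, had 12 and 55 counts (4.46-fold higher in dermal fibroblasts, beside the keratinocyte markers given above). In all, 2 of the 8 genes measured passed 2-fold towards chondrocytes and 4 towards dermal fibroblasts, with a median log2 fold of -1.71 over the 7 with a count.

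The signalling chain behind the receptors was nearly even. Of 19 adaptor and RAS-MAPK genes, 0 were over 2-fold higher in either direction, and the median log2 fold was -0.09, a sign that turned with scaling by *Actb*. *Gab1* (1.85-fold) and *Frs2* (1.57-fold), which encode adaptors that dock to activated FGF receptors, and *Braf* (1.30-fold) had the largest folds towards chondrocytes. *Map2k1* (1.65-fold), encoding a kinase of the chain, and *Sos1* (1.51-fold), encoding an exchange factor of RAS, were among the largest folds towards dermal fibroblasts.

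Among 11 feedback inhibitors of FGF signalling, 1 was over 2-fold higher in each direction, with a median log2 fold of -0.33 over the 10 with a count. *Dusp5*, encoding a nuclear ERK phosphatase, had 166 counts against 79 (2.16-fold, interval 1.64 to 2.86). *Dusp6*, the cytoplasmic ERK phosphatase gene that FGF signals are known to induce, had 470 and 272 counts (1.77-fold, interval 1.53 to 2.07). *Il17rd*, whose product Sef blocks FGF receptor signals, was 3.32-fold higher in dermal fibroblasts (105 and 358 counts). The Sprouty genes did not share a direction, with *Spry1* 1.62-fold higher in dermal fibroblasts, *Spry2* at a fold of 1.16 towards chondrocytes and *Spry4* within counting error.

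Of 8 transcripts known to be induced by FGF signalling, 3 were over 2-fold higher in chondrocytes and 1 in dermal fibroblasts. Among all genes the shares were 7.73% and 10.1%. Those higher in chondrocytes were *Fosl1* (132 and 51 counts, 2.66-fold, interval 1.91 to 3.75) and the ETS factor genes *Etv4* (96 and 39 counts, 2.53-fold, interval 1.73 to 3.77) and *Etv5* (884 and 396 counts, 2.29-fold, interval 2.03 to 2.59). The whole interval was above 2-fold for *Etv5* alone. *Fos* went the other way, with 325 and 936 counts (2.80-fold higher in dermal fibroblasts), and *Egr1* (3900 and 5319 counts) was within 2-fold. The median log2 fold of the 8 was 0.52.

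Genes that act with FGFR3 in the growth plate were also split. Of 10 genes, 4 were over 2-fold higher in chondrocytes and 1 in dermal fibroblasts, with a median log2 fold of 0.39. *Npr3*, encoding the clearance receptor of C-type natriuretic peptide (CNP), had 1375 and 54 counts (26.2-fold, interval 19.93 to 34.99), and *Prkg2*, encoding the cGMP-dependent kinase downstream of CNP, had 1447 and 183 counts (8.12-fold, interval 6.96 to 9.52). *Sox9* (5045 and 342 counts) was 15.2-fold higher. *Ihh*, the hedgehog ligand of prehypertrophic chondrocytes, had 41 counts against 3, a ratio of 14.0 with an interval from 4.48 to 70.9. *Npr2*, encoding the signalling receptor of CNP, was at 1.34-fold and the CNP gene *Nppc* had 1 and 5 counts. *Cdkn1a*, encoding an inhibitor of the cell cycle, was at 1.23-fold towards chondrocytes.

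**Figure D4:**
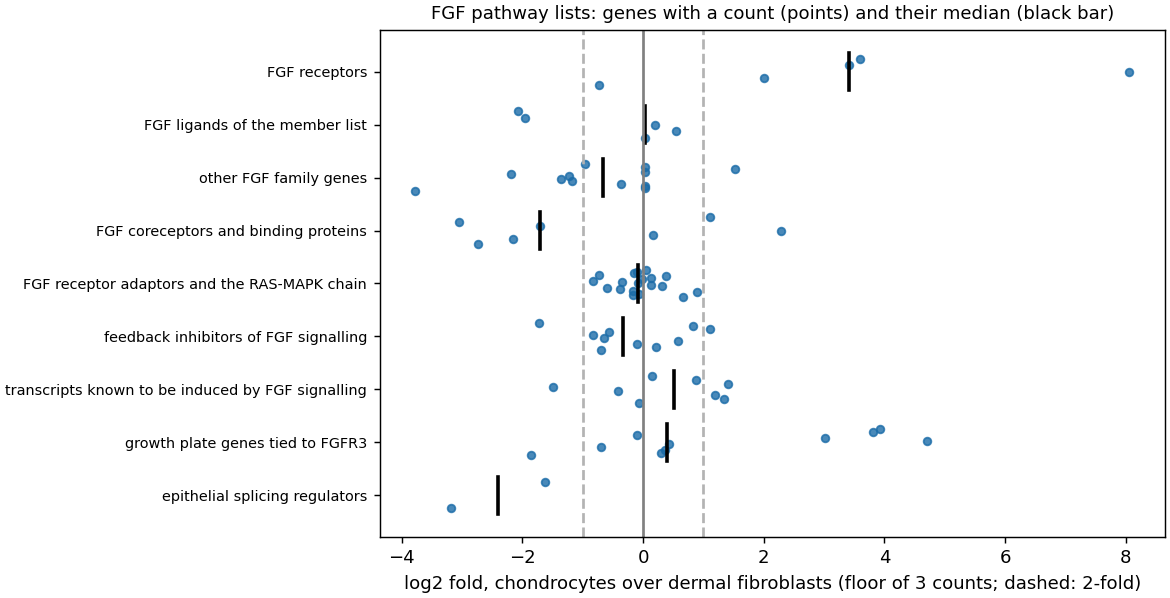
Each point is a gene with a count in either library, placed by its log2 fold of chondrocytes over dermal fibroblasts, for the lists of the FGF pathway, with the median of each list as a black bar and the 2-fold lines dashed. The adaptor and RAS-MAPK genes all lie between the dashed lines, around a median of -0.09, while the receptors have a median of 3.41.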

How the data were processed

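RNA-Seq counts of 1 chondrocyte and 1 dermal fibroblast library were used. The authors prepared stranded mRNA libraries, sequenced them as 75 bp single-end reads (CASAVA 1.8.2) and mapped them to mm10 with TopHat 2.0.13, Bowtie2 2.2.3 and SAMtools 0.1.19. They deposited whole-number counts per gene symbol without normalization. The counting program, its annotation and its strand setting are not given in the sources used here. In 27 rows, none of them an FGF gene, the symbol had become a date.

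Counts were divided by library sizes scaled with edgeR 4.0.16 TMM factors (R 4.3.3), which were 0.954 for chondrocytes and 1.05 for dermal fibroblasts. The floor of 3 counts was 0.167 and 0.163 CPM. Intervals were exact Poisson for levels and exact Clopper-Pearson for folds, at 95%. As no molecular identifiers were used, reads may repeat a molecule, which the intervals do not cover. A median over a list leaves out genes at 0 in both libraries, and genes at the floor in both count as within 2-fold. Exon lengths were the union of the exons in GENCODE vM1 (NCBIM37), used as lengths only. Gene positions and promoter sequences are RefSeq, GRCm38.p6, the assembly of mm10. Promoter windows were matched by symbol for 8 of the 10 genes, all but *Fgfr1* and *Fgf1*. Python 3.11.15, numpy 2.4.6, scipy 1.17.1, pandas 2.3.3 and matplotlib 3.10.9 were used, and the calculations were tested on simulated counts. The alternatives were 5 other scalings (DESeq2 1.42.0 among them), a floor of 1 or of 10 counts, adding a pseudocount of 1, a filter of 10 counts, a fold over 4, an interval wholly over 2-fold and the length of the longest transcript.

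The genes named were the 10 receptors and ligands, other FGF genes with at least 10 counts, the largest and smallest folds of each longer list among genes with at least 100 counts, members of lists of 11 genes or fewer, the 2 most abundant markers of a list and the 3 genes nearest to *Fgfr3*. *Fgf9*, *Fgf23*, *Pax7* and *Myod1* were added after their values were seen, and the values of some list genes are not reported here. The members and lists were chosen with earlier results of these data known.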

Additional observations from a re-analysis of the deposited data

How the results depend on the processing

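No paired analysis was possible because neither cell type was sequenced more than once. Under the 5 other scalings, both other floors and the pseudocount, the log2 fold of *Fgfr3* ranged from 7.92 to 8.18, that of *Fgfr4* from 3.27 to 3.53 and that of *Fgf10* from -2.09 to -1.83. Of 10 receptors and ligands, *Fgf1* alone changed sign, between -0.10 and 0.16. Total counts and *Actb* shifted all folds by a median of -0.14 and 0.12. They moved *Fgfr1* to -0.87 and -0.61, and *Fgfr2* to 1.87 and 2.13, outside their counting intervals. The numbers of receptors and ligands over 2-fold stayed at 4 and 2, except that a fold over 4 left 1 ligand higher in dermal fibroblasts.

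For the lists, a fold over 4 changed the numbers by construction. The other FGF genes went to 0 higher in chondrocytes and 2 higher in dermal fibroblasts, the coreceptors to 1 higher in chondrocytes, the feedback inhibitors and the FGF-induced transcripts to 0 in both directions, the growth plate genes to 0 higher in dermal fibroblasts, the splicing regulators to 1, the other receptor tyrosine kinases to 2 and 8, and all genes to 713 and 929. With the whole interval over 2-fold, 2 other FGF genes and 1 splicing regulator were higher in dermal fibroblasts, 0 feedback inhibitors and 1 FGF-induced transcript were higher in chondrocytes, and all genes gave 1041 and 1546. A floor of 10 counts left 2 other FGF genes higher in dermal fibroblasts. The floor of 1 count and the pseudocount each gave 2 growth plate genes higher there, and the pseudocount gave 2876 of all genes higher in chondrocytes. With total counts, *Hspg2* and *Dusp5* fell below 2-fold, which left 1 coreceptor and 0 feedback inhibitors higher in chondrocytes. With *Actb*, 1 adaptor was over 2-fold higher there.

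With the longest transcript as length, the shares of summed kinase receptor RPKM in chondrocytes were 66.5% for *Fgfr3*, 14.2% for *Fgfr2* and 4.24% for *Fgfr4*, and in dermal fibroblasts 12.04% for *Fgfr2* and 1.37% for *Fgfr4*. Depth limits *Fgf1* (16 counts in each library), *Fgf2* (41 and 29) and *Fgf18* (9 and 39).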
